A study of Mus musculus with 8 samples.

Results

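The genes that encode calcium- and sodium-activated potassium channels were examined in the dorsal and ventral medial entorhinal cortex (MEC) of the mouse. They were chosen by function and matched by symbol to the deposited table, which held 8 of them among its 38553 genes. These were the pore gene of the BK channel (Kcnma1), its beta subunit genes Kcnmb2 and Kcnmb4, the SK channel genes Kcnn1, Kcnn2 and Kcnn3, and the sodium-activated channel genes Kcnt1 and Kcnt2. The MEC is the cortical area that holds grid cells, and the study compared its dorsal and ventral ends because the scale of grid firing and the properties of its neurons change along this axis. Tissue was taken from 13 male mice of the C57BL/6JolaHsd strain, aged 8 weeks, for which no allele or treatment is named. The right hemisphere of every animal contributed 1 sagittal section, 400 µm in thickness, out of which tissue from either end of the MEC was dissected under a microscope. The mice formed 4 groups of 3 or 4, and the tissue of each group was pooled by region, which gave 4 dorsal and 4 ventral libraries. A p-value here therefore measures the spread between pools of mice and not between single mice.

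Potassium channels of this kind link the ions that enter a neuron during firing to the potassium current that ends it. BK channels open to depolarization and calcium together, act within the spike and the fast afterhyperpolarization, and are tuned by beta subunits that change their gating and drug sensitivity. SK channels open to calcium alone, through calmodulin bound to the pore subunit, and carry the medium afterhyperpolarization that limits firing rate. Slack and Slick, the products of Kcnt1 and Kcnt2, open when sodium rises in the cytoplasm and contribute to slow afterhyperpolarizations after bursts.

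The headers of the expression table named a region other than the one used here for 4 of the 8 libraries. Regions were taken from the study's own listed dorsal and ventral values, since the means over the libraries used here as dorsal equalled the listed dorsal FPKM within 0.1% for 1435 of 1435 genes, against 14 genes with the regions that the headers name. The fragments assigned to genes numbered 11435081 to 15359782 per library in dorsal and 10780902 to 14535142 in ventral MEC. All 5 marker genes of MEC layers reached a mean FPKM of 1, with a summed FPKM of 122 to 139 in dorsal and 108 to 124 in ventral libraries. Among them Wfs1 was higher in dorsal MEC (76.6 ± 9.09 against 52.5 ± 4.45 FPKM). Calb1 was higher in ventral MEC (4.57 ± 0.169 dorsally and 7.85 ± 2.05 ventrally), and the other 3 did not pass the test used below. Cell type markers differed between the regions. All 10 oligodendrocyte markers were higher in dorsal MEC, with a summed FPKM of 921 to 1221 against 502 to 666. Leptomeningeal markers were higher in ventral MEC for 4 of the 5 genes tested (summed FPKM 66.8 to 72.3 dorsally and 108 to 123 ventrally), with all 6 genes in the sum. Of the 3 markers of CA1 and subiculum, Fibcd1 and Fn1 were higher in ventral MEC, while Pou3f1, under the filter and untested, stood at 0.829 ± 0.161 FPKM dorsally and 0.563 ± 0.165 ventrally. Their summed FPKM of 10.7 to 13.7 and 16.6 to 23.0 was mostly Fn1. None of these markers was listed at 0 in all libraries. In pooled tissue, fewer cells of a type and less RNA per cell cannot be told apart.

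All 8 channel genes were detected in every library and passed the filter on low values, which asked for a mean FPKM of at least 1 and at least 10 fragments in at least 4 libraries. FPKM counts the fragments of a gene relative to the length of its transcripts and to the depth of the library, so that levels of different genes can be compared. By mean FPKM over the 8 libraries the order was Kcnma1 (73.9), Kcnn2 (34.7), Kcnt1 (24.5), Kcnt2 (20.4), Kcnmb4 (17.4), Kcnn3 (6.22), Kcnmb2 (2.12) and Kcnn1 (1.26). Kcnma1 stood above 94.9% of the 13374 genes tested and Kcnn1 above 4.04% of them. The level of Kcnma1 was 2.13 times that of Kcnn2, and it was the higher gene in 8 of 8 libraries. Neighbours in this order had ranges that did not overlap, with the exception of Kcnt1 over Kcnt2, which held in 6 of 8 libraries, and of Kcnt2 over Kcnmb4, which held in 7 of 8.

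**Figure D1:**
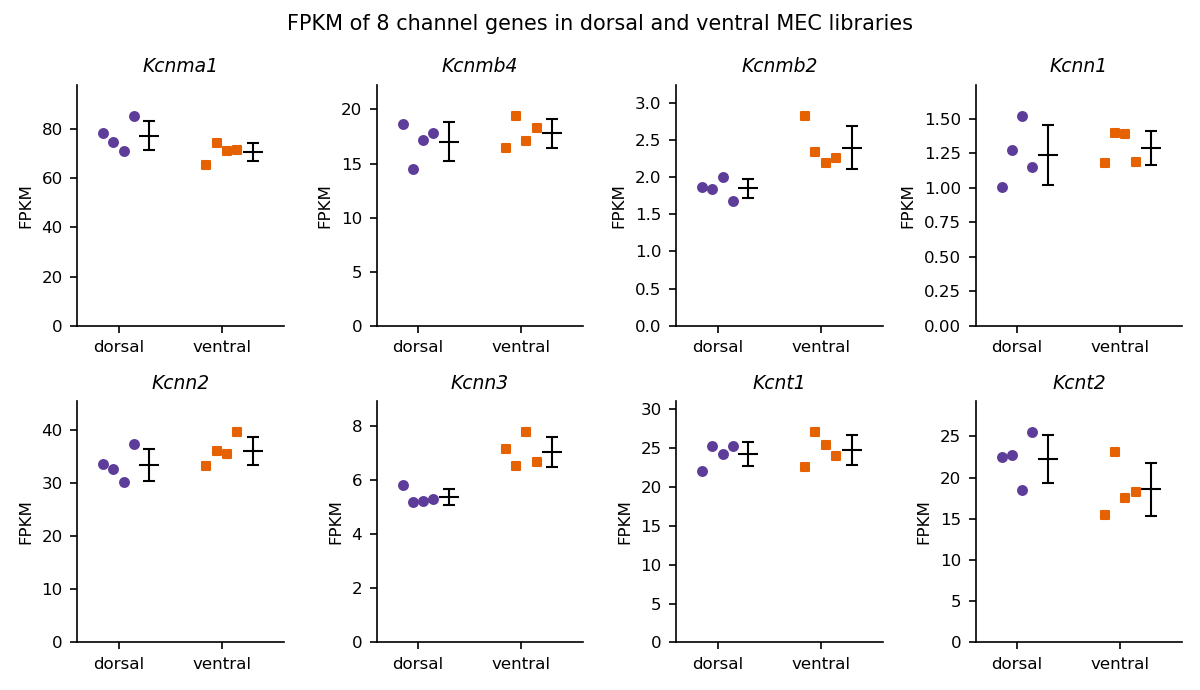
FPKM of each channel gene (vertical axes, linear and starting at 0) in the 4 dorsal (circles) and 4 ventral (squares) libraries, with the mean and SD of each region beside the points. Kcnn3 and Kcnmb2 are higher in every ventral library than in any dorsal one, while the regions overlap for the other genes.

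In the test on fragments, dorsal and ventral MEC differed in 2 of these 8 genes. Kcnn3 was higher in ventral MEC (V>D) and Kcnt2 higher in dorsal MEC (D>V), with fold changes of 1.30 and 1.32 on the scale of fragments. A gene was called when its Benjamini-Hochberg adjusted p in edgeR's quasi-likelihood test, fitted to the fragments of all 13374 genes tested, was under 0.05 and its fold change at least 1.2. By the same rule 880 genes (6.58%) were called, 479 of them D>V (3.58%) and 401 V>D (3.00%). Neither channel gene was called throughout. Kcnt2 was not called on FPKM, and the call of Kcnn3 was lost in 3 of 8 fits that left out a library. The median log2 fold change, ventral minus dorsal, was 0.07 over the 8 channel genes and 0.00 over all genes tested.

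**Figure D2:**
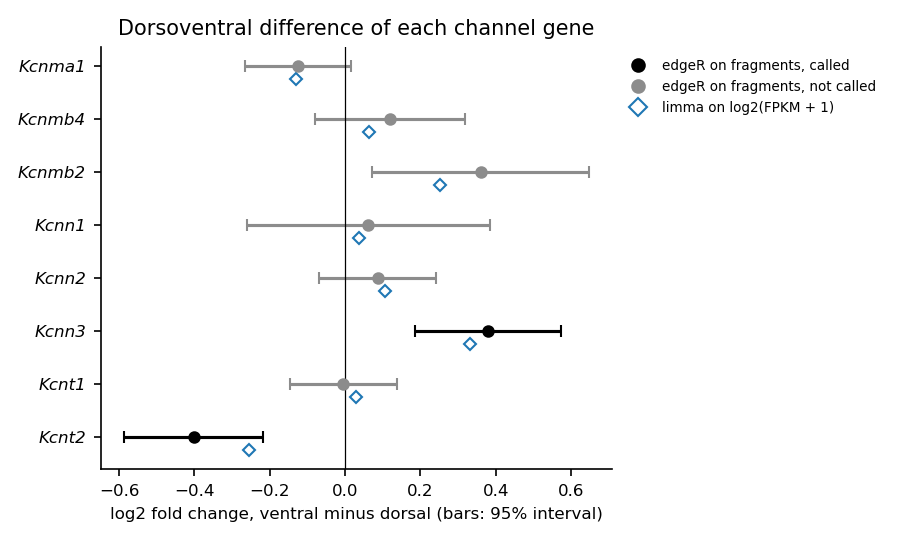
Log2 fold change, ventral minus dorsal, of each channel gene from edgeR on fragments (filled points with 95% intervals, black where called) and from limma on log2(FPKM + 1) (open diamonds). Kcnn3 lies to the right and Kcnt2 to the left of 0 with intervals that leave it out, and the diamond of Kcnt2 lies nearer to 0 than its point.

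Kcnma1 encodes the pore-forming alpha subunit of the BK channel and lies on the minus strand at chr14:23289431-24014491 (GRCm38, GENCODE M21). Its FPKM was 78.3, 74.6, 71.2 and 85.3 in the dorsal libraries and 65.3, 74.2, 71.1 and 71.6 in the ventral libraries. The highest library was dorsal and the lowest ventral, but the regions overlapped. The means were 77.3 ± 6.02 dorsally and 70.6 ± 3.75 ventrally (SD, n = 4 each), and the log2 fold change of fragments was −0.13, with a 95% interval of −0.27 to 0.01 (edgeR, adjusted p = 0.34). That interval corresponds to a ventral level between 0.832 and 1.01 times the dorsal one.

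The beta subunits were present at unequal levels. Kcnmb4 encodes the beta subunit that is most typical of neurons, which slows BK gating and makes the channel resistant to iberiotoxin. Its FPKM was 18.7, 14.5, 17.2 and 17.8 dorsally and 16.4, 19.4, 17.1 and 18.3 ventrally. The regions overlapped across most of their range, with the lowest library dorsal and the highest ventral. The means were 17.0 ± 1.82 and 17.8 ± 1.31 (SD, n = 4 each), and the log2 fold change was 0.12, with a 95% interval of −0.08 to 0.32 (edgeR, adjusted p = 0.58). The exons of Kcnmb4 (chr10:116417861-116473878, minus strand) overlap those of the antisense genes Kcnmb4os1 and Kcnmb4os2, listed at an FPKM of 0.362 to 0.739 and 0.987 to 2.81. Whether the counting used strand is not given in the sources used here, so that fragments of these genes and of Kcnmb4 cannot be told apart with certainty. The same holds for the exon overlaps of Kcnma1 with 4930519K11Rik and of Kcnn2 with A330093E20Rik and AC121957.1, genes not analysed here, and of Kcnn1 with A230052G05Rik, listed at an FPKM of 0.0294 to 0.160.

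Kcnmb2, on the plus strand at chr3:31902507-32200180, encodes a beta subunit whose N terminus inactivates the BK channel. Its FPKM was 1.87, 1.84, 1.997 and 1.68 in dorsal and 2.82, 2.33, 2.18 and 2.25 in ventral libraries. Every ventral library lay above every dorsal one, and the first ventral library was the highest. The means were 1.85 ± 0.130 and 2.40 ± 0.288 (SD, n = 4 each), which rest on 65 to 136 fragments per library. The log2 fold change of fragments was 0.36 with a 95% interval of 0.07 to 0.65, and it did not pass the test after adjustment over all genes (edgeR, adjusted p = 0.14). Regions that did not overlap in FPKM were found for 2 of the 8 channel genes, Kcnmb2 and Kcnn3, and for 11.3% of all genes tested. In CPM, the fragments scaled to a common library size, the count was 3 of 8, with Kcnt2 added, against 12.6% of all genes.

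Other subunits of these channel families were scarce in the tissue, apart from Lrrc55 with a mean FPKM of 4.71. Of 8 such genes only Kcnu1, a pore subunit best known from sperm, and Lrrc55, an auxiliary gamma subunit of BK, passed the filter, and neither was called. Lrrc55 had an FPKM of 4.41, 5.02, 6.25 and 5.68 dorsally and 3.51, 3.48, 5.40 and 3.95 ventrally, with a log2 fold change of −0.38 (edgeR, adjusted p = 0.14). The regions overlapped through the third ventral library. Among the genes under the filter were Kcnmb1, the beta subunit of smooth muscle, at an FPKM of 0.0680 to 0.198, and Kcnn4, the intermediate-conductance channel of blood cells and epithelia, which was listed at 0 in 7 of 8 libraries. Lrrc38 was listed at 0 in all libraries, and Kcnmb3 and Lrrc52 in 7 of 8. Lrrc26, another gamma subunit, had an FPKM of 1.23 ± 0.234 dorsally and 0.756 ± 0.262 ventrally (SD, n = 4 each) and was not tested because its mean was under 1.

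SK channels were represented mainly by Kcnn2, which encodes SK2, the subunit most abundant in cortex and hippocampus. Kcnn2 had an FPKM of 33.5, 32.6, 30.2 and 37.4 dorsally and 33.2, 35.9, 35.4 and 39.5 ventrally. The regions overlapped, and a single ventral library exceeded all dorsal ones. The means were 33.4 ± 2.99 and 36.0 ± 2.62 (SD, n = 4 each), with a log2 fold change of 0.09 and a 95% interval of −0.07 to 0.24 (edgeR, adjusted p = 0.61). Of the summed FPKM of the SK genes, Kcnn2 made up 83.4% ± 1.48 in dorsal and 81.2% ± 1.83 in ventral MEC.

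Kcnn1 encodes SK1, and its transcripts were near the lower limit of the test. Its FPKM ran from 1.01 to 1.52 in dorsal and from 1.18 to 1.40 in ventral libraries, so that the ventral range lay within the dorsal one. The means were 1.24 ± 0.217 and 1.29 ± 0.123 (SD, n = 4 each), from 56 to 96 fragments per library. The log2 fold change was 0.06 and its 95% interval of −0.26 to 0.39 was the widest of the 8 genes (edgeR, adjusted p = 0.90). That interval corresponds to a ventral level between 0.834 and 1.31 times the dorsal one and includes no difference.

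Kcnn3 encodes SK3, which in other regions is known from monoaminergic neurons and from dendritic compartments. It lies on the plus strand at chr3:89520164-89675132, and no other annotated gene overlaps it. Its FPKM was 5.82, 5.18, 5.25 and 5.30 in dorsal libraries and 7.17, 6.54, 7.77 and 6.69 in ventral libraries. All 4 ventral values lay above all 4 dorsal values, and the ventral ones were the more spread. The means were 5.39 ± 0.290 and 7.04 ± 0.555 (SD, n = 4 each).

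The same order held for its CPM, scaled between libraries by TMM, the trimmed mean of M-values. These were 19.9, 17.8, 17.98 and 18.03 dorsally and 24.7, 22.4, 27.0 and 21.6 ventrally, from 211 to 369 fragments per library. Kcnn3 was V>D with a log2 fold change of 0.38, a fold change of 1.30 with a 95% interval of 1.14 to 1.49 (edgeR, adjusted p = 0.0156). The call was lost when dorsal library 2, ventral library 1 or ventral library 3 was left out, with an adjusted p of 0.0623, 0.0534 and 0.0574 and a log2 fold change of 0.36, 0.36 and 0.32. With only the 4 libraries whose headers name the same region as the study, the log2 fold change was 0.21 (edgeR, adjusted p = 0.59), and with the regions of the headers it was −0.17 (adjusted p = 0.91). Called leptomeningeal markers (4 of 5 tested) and the oligodendrocyte precursor gene Pdgfra were higher in the same libraries. So were Fibcd1 and Fn1 of the CA1 and subiculum list, whereas Pou3f1 was not. Sst, Calb1 and Gfap were V>D too (log2 fold changes of 1.02, 0.90 and 0.28), while Pvalb, Npy, Wfs1 and Prox1 were D>V. The part of these markers in the difference of Kcnn3 was not tested.

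Within the SK family, Kcnn3 took 13.5% ± 1.06 of the summed FPKM in dorsal and 15.9% ± 1.67 in ventral MEC, and Kcnn1 took 3.12% ± 0.741 and 2.91% ± 0.312. The summed FPKM of the SK genes was 40.0 ± 2.89 dorsally and 44.3 ± 2.40 ventrally (SD, n = 4 each). The Kcnn3/Kcnn2 ratio of FPKM was 0.174, 0.159, 0.174 and 0.142 in dorsal libraries and 0.216, 0.182, 0.220 and 0.169 in ventral libraries. The fourth ventral library lay within the dorsal range and the others above it. A ratio within a library does not depend on the scaling of libraries, and an exact two-sided permutation test of the mean log2 ratio gave a difference of 0.27 with p = 0.0857 and an adjusted p of 0.15 over the 7 ratios compared. With 4 against 4 libraries a ratio that differs alone among the 7 cannot pass after adjustment, so that this test leaves a shift of the SK family towards Kcnn3 undecided.

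The remaining ratios had adjusted p-values over 0.05 too (exact two-sided permutation tests, for which 4 against 4 libraries allow no p below 0.0286). Kcnmb2/Kcnma1 was 0.0239, 0.0247, 0.0280 and 0.0197 dorsally and 0.0432, 0.0314, 0.0307 and 0.0314 ventrally. The regions did not overlap, and the ratio of the first ventral library was the highest by far. Its log2 difference of 0.50 reached the smallest p possible, with an adjusted p of 0.15 in the exact permutation test. Kcnmb4/Kcnma1 was 0.221 ± 0.0230 in dorsal and 0.252 ± 0.00892 in ventral MEC (SD, n = 4 each), a log2 difference of 0.20 (exact permutation p = 0.0571, adjusted p = 0.15). Kcnmb2/Kcnmb4 differed by 0.30, Kcnn3/Kcnn1 by 0.31 and Kcnn2/Kcnn1 by 0.04 on the log2 scale, with adjusted p of 0.16, 0.20 and 0.77 in the same exact permutation test.

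**Figure D3:**
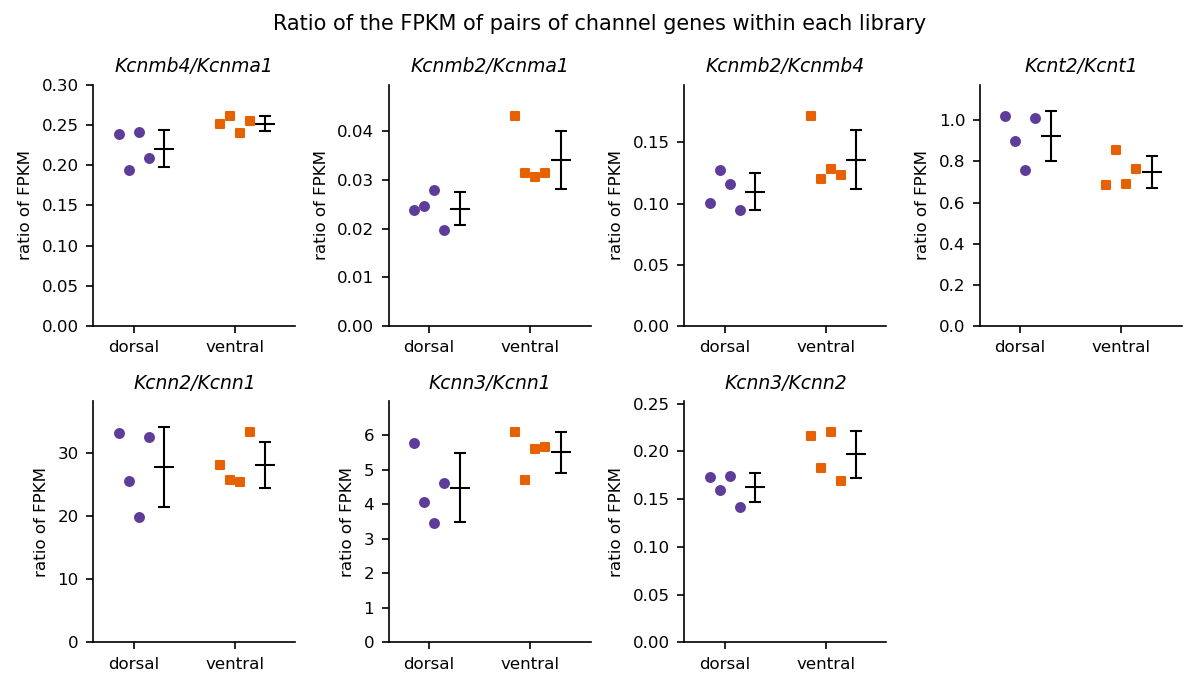
Ratio of the FPKM of pairs of channel genes within each library (vertical axes, linear and starting at 0) for 4 dorsal (circles) and 4 ventral (squares) libraries, with the mean and SD of each region. Kcnmb2/Kcnma1 is the ratio whose regions do not overlap, and the other ratios overlap.

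Kcnt1 encodes Slack, the channel of large conductance in the sodium-activated family. Its FPKM was 22.0, 25.3, 24.2 and 25.3 in dorsal and 22.6, 27.0, 25.4 and 23.9 in ventral libraries. High and low libraries occurred in both regions. The means were 24.2 ± 1.53 and 24.7 ± 1.90 (SD, n = 4 each), and the log2 fold change of fragments was −0.01, with a 95% interval of −0.15 to 0.14 (edgeR, adjusted p = 0.99). That interval corresponds to a ventral level between 0.903 and 1.10 times the dorsal one.

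Kcnt2 encodes Slick, which forms channels alone or together with Slack. It lies on the plus strand at chr1:140246158-140612067, and its exons overlap an annotated antisense gene, 4930590L20Rik, which was not analysed here. Fragments of that gene and of Kcnt2 cannot be told apart with certainty either, since the use of strand in the counting is not given. Kcnt2 had a CPM of 121, 106, 96.2 and 125 in dorsal libraries and 80.8, 91.3, 76.5 and 91.0 in ventral libraries. All 4 ventral libraries lay below all 4 dorsal ones. The means were 112 ± 13.4 and 84.9 ± 7.41 (SD, n = 4 each), from 963 to 1640 fragments per library, so that Kcnt2 was among the more deeply covered of the 8 genes.

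Kcnt2 was D>V with a log2 fold change of −0.40 and a 95% interval of −0.59 to −0.22, a dorsal level 1.32 times the ventral one (edgeR, adjusted p = 0.00754). It was called in 8 of 8 fits that left out a library, with log2 fold changes between −0.47 and −0.34. With only the 4 libraries whose headers name the same region as the study the log2 fold change was −0.25 (edgeR, adjusted p = 0.42), and with the regions of the headers it was 0.15 (adjusted p = 0.93). Oligodendrocyte markers were also higher in the dorsal libraries, with a median log2 fold change of −0.92. Called genes of other marker lists were D>V too, namely Pvalb (−1.25), Npy (−1.03), Wfs1 (−0.54) and Prox1 (−0.35). In the lists of Pvalb and Wfs1, Sst and Calb1 were V>D. The part of these markers in the difference of Kcnt2 was not tested.

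The difference of Kcnt2 was smaller in the deposited FPKM. These were 22.5, 22.8, 18.4 and 25.5 dorsally and 15.5, 23.1, 17.5 and 18.3 ventrally. The second ventral library was the highest but 1 of all 8, while the other ventral libraries lay below the dorsal range, so the regions overlapped. The means were 22.3 ± 2.9 and 18.6 ± 3.22 (SD, n = 4 each). On log2(FPKM + 1) the fold change was −0.25 and the gene was not called (limma, adjusted p = 0.33, with a ventral mean FPKM at 0.834 of the dorsal one), where 4.05% of genes were called by that test. The same test on log2(CPM + 1) gave −0.39 and did call it (limma, adjusted p = 0.00763, with a ventral mean CPM at 0.757 of the dorsal one).

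Both scales start from the same alignments, but the program that made the FPKM divides by a length that it estimates from the mixture of transcripts in each library. The quotient of CPM and FPKM was 5.39, 4.66, 5.23 and 4.96 in the dorsal and 5.19, 3.97, 4.32 and 5.003 in the ventral libraries for Kcnt2. The second ventral library, with the lowest of these quotients, was the one with the high FPKM. The quotient ran from 4.88 to 4.89 for Kcnn1 and from 5.52 to 5.55 for Kcnma1, but it also varied for Kcnt1 (2.39 to 2.73), Kcnmb4 (1.42 to 1.59), Kcnmb2 (3.11 to 3.33) and Kcnn2 (1.75 to 1.83). For Kcnn3 it was 3.43 in 7 of 8 libraries and 3.24 in the fourth ventral one. The log2 difference between regions moved by −0.13 for Kcnt2 from FPKM to fragments, and 6.02% of genes moved by at least as much in size, with a median of 0.01 over all genes. GENCODE M21 lists 3 protein-coding transcripts of Kcnt2, of 3540 to 5790 bases, but whether their use differed was not tested.

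**Figure D4:**
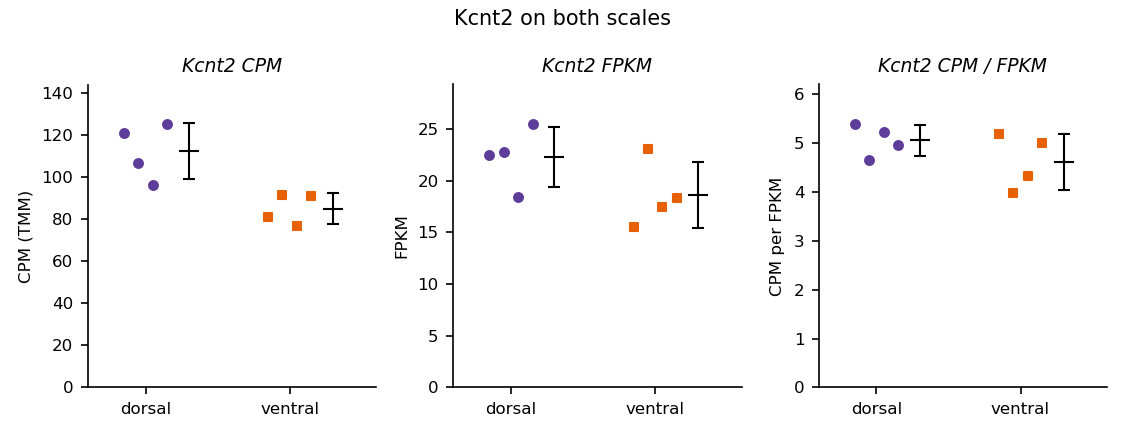
Kcnt2 in 4 dorsal (circles) and 4 ventral (squares) libraries as CPM (TMM-scaled), as FPKM and as the quotient of these measures, with the mean and SD of each region and axes that start at 0. The regions are apart in CPM and overlap in FPKM, where the second ventral library lies at 23.1.

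The Kcnt2/Kcnt1 ratio of FPKM was 1.02, 0.900, 0.761 and 1.01 in dorsal and 0.686, 0.855, 0.688 and 0.765 in ventral libraries. The third dorsal library lay within the ventral range. The log2 difference was −0.30 (exact permutation p = 0.0857, adjusted p = 0.15), with the same limit on what the adjusted test can show. From fragments it was −0.39 (exact permutation p = 0.0286, adjusted p = 0.0667). Kcnmb4/Kcnma1 and Kcnmb2/Kcnma1 differed by 0.24 and 0.48 from fragments, with the same p and adjusted p. The adjusted p of the remaining ratios from fragments was 0.15 to 0.97 in that test, so that no ratio passed on either scale.

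Genes with a profile most like that of each called channel gene were listed by Pearson's r of log2(FPKM + 1) over the 8 libraries, as a description only, since all genes share these libraries and their region. For Kcnn3 they were L1cam (r = 0.98), a neuronal adhesion molecule, Pnma3 (0.98) and Rbp4 (0.97), a retinol carrier. L1cam and Rbp4 were themselves V>D, with log2 fold changes of 0.28 and 0.75 (edgeR, adjusted p = 0.0354 and 0.00238), whereas Pnma3 was not called (log2 fold change 0.25, adjusted p = 0.0663). For Kcnt2 they were Faf1 (r = 0.98), 2810055G20Rik (0.97) and Rif1 (0.97), none of which was called. On this FPKM scale the regions of Kcnt2 overlapped and Kcnt2 itself was not called. These genes were matched to its FPKM profile. Their match to the CPM profile, in which its regions were apart, was not computed. An r of at least 0.95 was reached by 21 genes with Kcnn3 and by 11 with Kcnt2.

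Of the genes of proteins that assemble with these channels none was called, where 6.58% of all genes tested were. In lists this short, a count of 0 does not set them apart from that share. In the SK complex, which holds the calmodulins that sense calcium and the kinase CK2 and phosphatase PP2A that set its calcium sensitivity, 0 of 9 genes were called in either direction (median log2 fold change −0.06, none at an unadjusted p under 0.05 and none with DESeq2). Among 6 partners of BK and Slack, which include the fragile X protein gene Fmr1 and Lingo1, 0 were called by edgeR or DESeq2 and the median was −0.07. Of these, Dlg4, the gene of the scaffold PSD-95, had an unadjusted p under 0.05 (log2 fold change 0.16, edgeR, adjusted p = 0.18).

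Genes that let in or release the calcium that opens BK and SK channels were called in both directions. Of 14 that were tested, 8 were called, 6 V>D and 2 D>V, beside 6.58% of all genes, and the median log2 fold change was 0.02. The largest difference was in Cacna1h, a T-type calcium channel that opens at low voltage, with an FPKM of 2.09, 2.42, 2.43 and 2.12 dorsally and 3.87, 3.63, 4.49 and 2.85 ventrally. No ventral library reached down to the dorsal range, and the log2 fold change of fragments was 0.85 (edgeR, adjusted p = 9.66e-05). Ryr3, a channel that releases calcium from the endoplasmic reticulum, had an FPKM of 11.7, 8.48, 9.14 and 10.8 dorsally and 15.6, 20.6, 14.6 and 14.3 ventrally, again without overlap. Its log2 fold change was 0.68 (edgeR, adjusted p = 0.000197).

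Cacna1g, also a T-type gene, was V>D with a log2 fold change of fragments of 0.44 (edgeR, adjusted p = 0.00357). Its FPKM of 6.45 ± 0.517 dorsally and 9.95 ± 1.26 ventrally gave a larger log2 ratio, 0.63. The L-type gene Cacna1c (0.35), the R-type gene Cacna1e (0.27) and Jph4 (0.31), a junctophilin that ties the plasma membrane to the endoplasmic reticulum, were V>D as well (edgeR, adjusted p of 0.00776 to 0.0103). In the other direction, Cacna1a, the P/Q-type channel of presynaptic terminals, was D>V, at 46.98 ± 2.81 and 37.8 ± 1.43 FPKM, with a log2 fold change of fragments of −0.28 (edgeR, adjusted p = 0.00644). The last T-type gene, Cacna1i, was D>V, at 6.96 ± 0.407 and 5.23 ± 0.573 FPKM, with a log2 fold change of fragments of −0.34 (edgeR, adjusted p = 0.0102). All 8 called genes had regions that did not overlap in FPKM, as did the uncalled Itpr1 and 11.3% of all genes tested. The calls come from the same libraries, so this adds no support to them. Between 6 and 8 of the called genes were called when a library was left out, with Cacna1a, Cacna1e and Jph4 the ones lost. Without TMM scaling 7 were called, where Cacna1a was lost. In limma on log2(FPKM + 1) 6 were called, without Cacna1c and Jph4. With only the 4 libraries whose headers name the same region as the study, 3 were called, Cacna1h, Ryr3 and Cacna1i, and 8 of 8 kept their direction.

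Sodium channels, through which the sodium that opens Slack and Slick enters, gave 2 called genes of 7 tested, beside 6.58% of all genes. Their median log2 fold change was −0.12. Scn1a, the sodium channel prominent in fast-spiking interneurons, was D>V with an FPKM of 69.4, 67.4, 80.2 and 76.4 dorsally and 54.0, 59.3, 58.6 and 56.95 ventrally. The lowest dorsal library lay above the highest ventral one, and the log2 fold change was −0.42 (edgeR, adjusted p = 0.000231). Pvalb, the marker of fast-spiking interneurons, was D>V as well, at 15.7 ± 2.15 and 6.63 ± 0.961 FPKM, with a log2 fold change of −1.25 (edgeR, adjusted p = 2.1e-05). Of the 7 GABAergic markers Npy was also D>V and Sst V>D. Their summed FPKM was 247 to 320 dorsally and 316 to 407 ventrally, of which Sst alone made 109.5 ± 29.4 and 220 ± 41.1. The sum therefore follows Sst and not the list as a whole. Gad1, Gad2, Slc32a1 and Vip were not called, with log2 fold changes of −0.14, 0.15, 0.02 and 0.15. The part of these markers in the differences of the sodium channel genes was not tested. Scn3b, a beta subunit, was V>D, at 37.9 ± 1.16 and 46.5 ± 3.20 FPKM, with a log2 fold change of fragments of 0.28 (edgeR, adjusted p = 0.00666). Scn4b, a beta subunit linked to resurgent current, was under the filter and untested, with an FPKM of 0.892, 1.22, 1.02 and 1.25 dorsally and 0.167, 0.198, 0.205 and 0.300 ventrally. Its highest ventral library lay below its lowest dorsal one. Of the called pair, Scn3b was lost without the second ventral library.

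For the slow afterhyperpolarization, which follows SK current in many neurons and has been tied to the calcium sensor hippocalcin and to KCNQ channels, 3 of 4 genes were D>V and the median log2 fold change was −0.35. Kcnq5 had an FPKM of 13.9, 14.0, 12.9 and 14.4 dorsally and 10.02, 11.3, 8.99 and 10.1 ventrally, with no overlap and a log2 fold change of −0.44 (edgeR, adjusted p = 0.000355). Kcnq3 stood at 27.4 ± 1.03 and 20.6 ± 1.86 FPKM, with a log2 fold change of fragments of −0.41 (edgeR, adjusted p = 0.00175). Hpca, the hippocalcin gene, was D>V, at 117 ± 7.88 and 94.8 ± 3.94 FPKM, with a log2 fold change of fragments of −0.30 (edgeR, adjusted p = 0.00818). These 3 calls were kept in 8 of 8 fits that left out a library. In the 4 libraries with the same region in both sources, 0 of the called genes of the sodium and slow afterhyperpolarization lists were called, and all of them kept their direction. With the regions of the headers 2 genes were called among all tested, none of them among the 880. All of these lists held few genes, and their counts stand beside 6.58% of all genes called without a test of the difference.

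**Figure D5:**
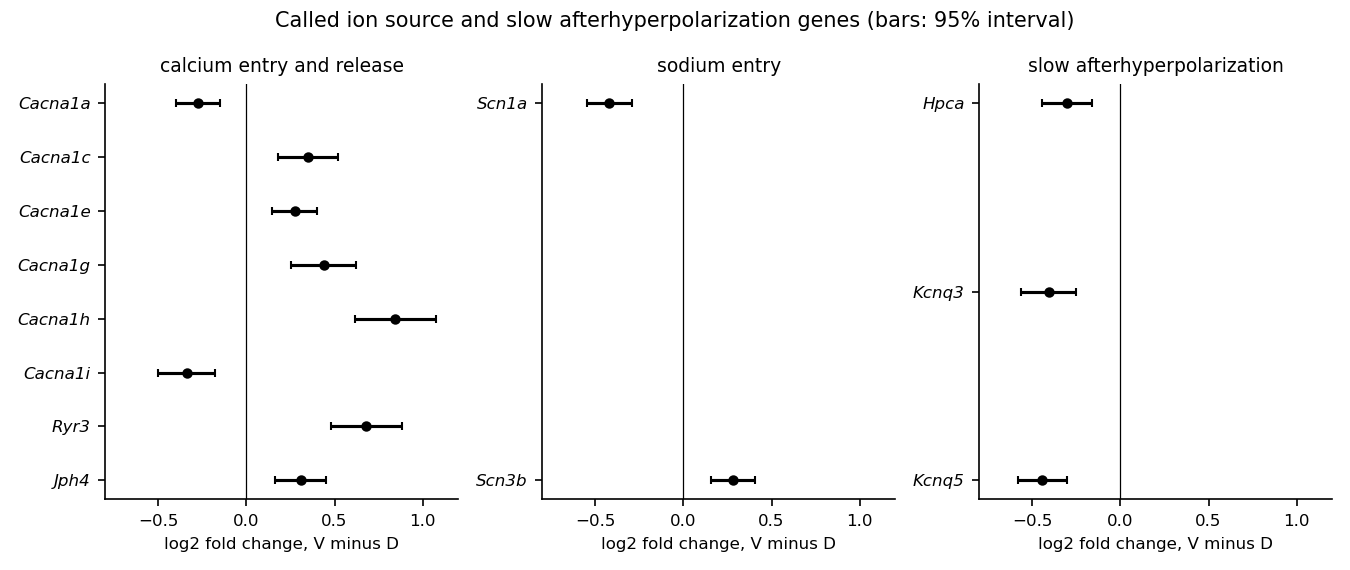
Log2 fold change, ventral minus dorsal, with 95% intervals from edgeR for the called genes of calcium entry and release (8 of 14 tested), sodium entry (2 of 7) and the slow afterhyperpolarization (3 of 4). Genes that were not called are not drawn. Cacna1h and Ryr3 lie farthest to the right, and Kcnq5, Scn1a and Kcnq3 farthest to the left.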

How the data were processed

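RNA was reverse transcribed and amplified with the Ovation RNA-Seq System V2 from 120 ng per pool (RNA integrity numbers 7.1 to 8.5) and sequenced as paired ends. Per the labels and the study's methods, the authors used CASAVA 1.8, TopHat2 2.0.8 and Cuffdiff 2 with Ensembl release 73 (GRCm38) and deposited FPKM per gene and library, scaled between libraries by Cuffdiff. The authors also deposited estimated fragment numbers (expected counts), of which 93.6% lay within 0.01 of a whole number, and these were rounded. The 2 other columns of per-sample values, scaled fragment numbers, were not used. Columns of the authors' own comparison, with fold changes, p-values and q-values, were not used. Read groups and FPKM columns were matched by equal FPKM of all 38553 genes, and regions were set by the study's listed dorsal values. That assignment rests on values, not labels. Replicates differed by more than counting noise (chi-square per degree of freedom of 4.49 to 15.7), so each library counted as 1 replicate.

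Fragments were tested with edgeR 4.0.16 (quasi-likelihood, TMM), with CPM for display, and, as alternatives, with DESeq2 1.42.0 and limma 3.58.1 in R 4.3.3. In limma a gene was called by the adjusted p and a ratio of the regions' means, in the unit tested (FPKM or CPM), of at least 1.2. Ratios, exact permutation tests and plots used Python 3.11.15, NumPy 2.4.6, SciPy 1.17.1, pandas 2.3.3 and matplotlib 3.10.9. The added 1 in log2(FPKM + 1) shrinks the fold changes of scarce transcripts. On simulated data, with 13374 genes and 200 changed in each of 5 runs, the edgeR step recovered 67.8% of genes changed by 0.5, 93.9% of those changed by 1 and 99.7% of those changed by 2 on the log2 scale, and 7.77% of its calls were false.

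The channel genes and all gene lists were chosen with earlier results of these data known. Named are the 8 channel genes, called genes of the pathway lists, the 3 genes most correlated with each called channel gene, and marker lists that moved with the regions. Uncalled or untested genes of those lists that are named, such as Lrrc26, Scn4b and Dlg4, were added after their values were seen. Markers of astrocytes (1 of 7 called, Gfap V>D), microglia (0 of 7), endothelial (0 of 5) and mural cells (0 of 5), choroid plexus (0 of 1), glutamatergic neurons (0 of 5), GABAergic neurons (3 of 7, Pvalb and Npy D>V, Sst V>D), dentate gyrus (1 of 1, Prox1 D>V), oligodendrocyte precursors (1 of 3) and MEC layers (2 of 5, Wfs1 D>V, Calb1 V>D) were also counted. Single values of some genes of these lists are not reported here.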

Additional observations from a re-analysis of the deposited data

Results flagged for a closer look

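Among 46 groups of 4 libraries, 3 held a library whose gap to its nearest neighbour was large in relation to the range of its group (above Dixon's 95% critical value of 0.829), which chance gives in about 1 in 20 groups. Kcnn3 stood at a CPM of 19.9 in dorsal library 1, against 17.8, 17.98 and 18.03 in the others, and all 4 lay below the ventral libraries. The Kcnmb2/Kcnma1 ratio was 0.0432 in ventral library 1, against 0.0307, 0.0314 and 0.0314. In the same library Kcnmb2/Kcnmb4 was 0.172, against 0.120, 0.123 and 0.128.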

How the results depend on the processing

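Other scalings, tests and filters on fragments kept both calls: Kcnn3 and Kcnt2 were called with RLE size factors, unscaled totals, DESeq2, no FPKM filter, a mean FPKM of at least 5 and limma on log2(CPM + 1), an alternative chosen after seeing the data. On log2(FPKM + 1) and log2(FPKM + 0.1) limma called 0 D>V channel genes, with log2 fold changes of −0.25 and −0.27 for Kcnt2 (adjusted p of 0.33) and 0.029 and 0.030 for Kcnt1.

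The regions named by the headers gave 0 channel genes called in either direction and log2 fold changes of 0.087 (Kcnma1), −0.11 (Kcnmb2), −0.038 (Kcnn1), −0.17 (Kcnn3), 0.044 (Kcnt1) and 0.15 (Kcnt2), with 2 D>V and 0 V>D genes called in all and 720 at an unadjusted p under 0.05. The 4 libraries on which both sources give the same region, added after seeing the data, also gave 0 and 0, with 0.21 (Kcnn3), −0.25 (Kcnt2) and 0.039 (Kcnt1), and 133 D>V and 80 V>D genes in all. This fit has fewer samples.

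Leaving out each library gave 0.32 to 0.42 for Kcnn3, −0.47 to −0.34 for Kcnt2, −0.021 to 0.17 for Kcnn1, −0.032 to 0.026 for Kcnt1 and −0.11 to 0.14 for the log2 Kcnn2/Kcnn1 ratio, with 1 D>V and 0 to 1 V>D channel genes called. Among values that were not called it gave 0.049 to 0.17 for Kcnmb4, 0.046 to 0.13 for Kcnn2, −0.16 to −0.077 for Kcnma1, 0.18 to 0.38 for log2 Kcnmb2/Kcnmb4 and 0.20 to 0.44 for log2 Kcnn3/Kcnn1. Over all genes it gave 363 to 618 D>V and 277 to 439 V>D calls. Unscaled totals shifted the median log2 fold change to 0.03 and the calls to 394 D>V and 478 V>D, and gave 0.027 for Kcnt1, 1 D>V gene of calcium entry and 2 V>D genes of sodium entry. DESeq2 gave 2 D>V and 2 V>D genes of sodium entry. The causes were not tested. No FPKM filter gave 613 D>V and 567 V>D calls among 24156 genes, and a mean FPKM of at least 5 gave 322 and 261 among 8671. limma on log2(FPKM + 1) gave 318 and 223.

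No paired analysis was possible because the labels do not say which dorsal and ventral pools came from the same mice. The main limits are the assignment of regions by values, 4 pools per region, and the low fragment numbers of Kcnn1 and Kcnmb2.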
